A study of Homo sapiens with 36 samples.

Results

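FAM46C, VASN, TNFSF9, SERPINI1, SAT1, BFSP1 and TRIM36 are 7 of the 29744 genes in the deposited table. They were selected on the large log2 fold changes of their transcripts with JQ1, TRAP1 or TRAP-1-NegP against DMSO of the same time in these libraries. Those values chose the genes, so they are given as a description without a test. All 7 genes were among the 14988 that passed the count filter.

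The libraries were made from BxPC-3, an established human pancreatic adenocarcinoma line that the labels call wild type. Cells were exposed for 4 or 2 h to TRAP1, TRAP-1-NegP, JQ1, TRAP-1-NegB or MS78, each at 3 µM, or to DMSO, the solvent control. With 3 libraries of polyadenylated RNA in each of the 12 groups of compound and time, there were 36 in all. TRAP1 is here the name of a compound and not of the gene of that symbol. JQ1 is a small-molecule inhibitor of the BET bromodomain proteins. The labels give no target for the other 4 compounds and do not say what NegB and NegP stand for, so the genes are called below by how they were picked. Replicates are numbered in the labels but are not said to be separate cultures, so the p-values measure a spread between libraries that may be technical.

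BET proteins, among them BRD2 and BRD3, bind acetylated histone tails through paired bromodomains and help RNA polymerase leave its paused state near promoters. BET inhibitors displace them from chromatin and lower many transcripts, while another set of transcripts, which includes HEXIM1, BRD2 itself and histone genes, typically goes up within hours. The 7 genes have unrelated products: an RNA-modifying enzyme, 2 cell-surface proteins, a secreted protease inhibitor, a metabolic enzyme, a cytoskeletal protein and a ubiquitin ligase.

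Total estimated counts ran from 15288688 to 26608325 per library. All 10 ductal epithelial markers examined averaged over 1 TPM (a length-corrected share of transcripts), and their sum lay between 10010 and 13130 TPM. Of 10 mesenchymal markers, 2 averaged over 1 TPM, with a sum of 3.24 to 7.07 TPM and POSTN at 0 in every library. Of 11 haematopoietic and endothelial markers, 3 did so, with a sum of 23.2 to 35.7 TPM. A pair of libraries stood apart in earlier results of these data, TRAP1 at 4 h replicate 1 and MS78 at 2 h replicate 1. Results that change without them are marked beside the result. In these bulk samples, fewer cells that hold a transcript and less of it per cell cannot be told apart.

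In GENCODE v29 on GRCh38, FAM46C, listed there under its newer name TENT5C, lies at chr1:117605934-117628372 on the plus strand. VASN lies at chr16:4371848-4383528 on the plus strand, inside the span of CORO7, which runs along the minus strand. TNFSF9 lies at chr19:6530999-6535928, SERPINI1 at chr3:167735243-167825568 and SAT1 at chrX:23783173-23786226, all on the plus strand. BFSP1, at chr20:17493905-17569220, and TRIM36, at chr5:115124762-115180546, are on the minus strand. All 7 are annotated as protein-coding and no pair of them is on the same chromosome. Their spans differ from 3054 bases for SAT1 to 90326 bases for SERPINI1. The matched transcripts of VASN and FAM46C have 2 exons, and that of TRIM36 has 10.

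The 250 bases before the RefSeq start site are shown for the 4 genes that have a single start in RefSeq on GRCh38.p14 and at least 1 of the motifs searched, so that it can be seen what stands before the starts of genes that were high in the same libraries. Capitals mark the GC box GGGCGG on either strand. They also mark the CCAAT box, named for its letters, on either strand. The TATA box, searched as TATAAA on both strands, is capitalised too. No marked motif overlaps another of a different kind. The sequences run 5′ to 3′ along the gene, at chr1:117605798-117606047 for FAM46C, chr16:4371598-4371847 for VASN, chr19:6530776-6531025 for TNFSF9 and chrX:23782923-23783172 for SAT1, all on the plus strand.
FAM46C: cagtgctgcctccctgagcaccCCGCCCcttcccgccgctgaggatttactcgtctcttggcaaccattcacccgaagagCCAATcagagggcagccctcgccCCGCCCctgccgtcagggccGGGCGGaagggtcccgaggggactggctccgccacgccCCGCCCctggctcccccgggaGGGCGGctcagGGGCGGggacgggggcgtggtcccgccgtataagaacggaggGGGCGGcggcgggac
VASN: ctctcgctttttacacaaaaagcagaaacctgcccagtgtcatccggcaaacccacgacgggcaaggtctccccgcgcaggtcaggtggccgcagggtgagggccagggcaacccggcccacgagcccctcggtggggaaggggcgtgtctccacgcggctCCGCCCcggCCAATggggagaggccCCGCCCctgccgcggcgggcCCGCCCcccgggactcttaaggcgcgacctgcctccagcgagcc
TNFSF9: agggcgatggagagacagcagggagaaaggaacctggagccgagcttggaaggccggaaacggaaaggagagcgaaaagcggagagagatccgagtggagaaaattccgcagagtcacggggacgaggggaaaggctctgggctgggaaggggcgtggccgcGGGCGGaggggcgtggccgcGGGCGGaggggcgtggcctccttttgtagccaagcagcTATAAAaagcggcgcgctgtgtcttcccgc
SAT1: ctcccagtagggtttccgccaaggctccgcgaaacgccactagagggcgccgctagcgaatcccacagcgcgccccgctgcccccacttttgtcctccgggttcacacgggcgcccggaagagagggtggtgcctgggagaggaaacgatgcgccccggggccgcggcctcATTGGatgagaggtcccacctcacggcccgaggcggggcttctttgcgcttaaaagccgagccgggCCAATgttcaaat

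All 7 genes matched an entry, with 9 start sites in all, since BFSP1 and TRIM36 have 2 each. The GC box was found in 6 of the 9 windows (FAM46C, VASN, TNFSF9, the outer BFSP1 start and both TRIM36 starts), against 42.64% of all 35116 RefSeq promoter windows of this length. The CCAAT box was found in 5 of the 9 windows (FAM46C, VASN, SAT1 and both BFSP1 starts), against 32.01% of all windows. TATAAA was found in 2 of the 9 windows, those of TNFSF9 and of the inner BFSP1 start, against 10.72% of all windows. The AP-1 motif TGANTCA was found in 1 of the 9 windows, that of the inner BFSP1 start, against 6.57% of all windows. The E-box CACGTG, present in 6.34% of all windows, and the cyclic AMP response element TGACGTCA, present in 1.65%, were not found at any of the 9 starts. No motif was shared by all 7 genes. The GC content of the 9 windows ran from 44.4% at the inner BFSP1 start to 74.4% at the inner TRIM36 start, against a median of 58.0% over all windows.

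Levels below are CPM, that is estimated counts scaled to library totals adjusted by TMM factors, with the 3 libraries of a group in the order of their replicate numbers. Changes are log2 fold changes with their SE. At both times and for every one of the 7 genes, all 9 libraries of TRAP1, TRAP-1-NegP and JQ1 stood above all 9 libraries of TRAP-1-NegB, MS78 and DMSO. How many of all genes tested were separated in this way was not counted, so this is given as a description. The genes were picked because TRAP1, TRAP-1-NegP or JQ1 libraries stood high against DMSO, so this separation follows largely from the choice. Only the levels with TRAP-1-NegB and MS78 took no part in it. A log2 fold change against DMSO of at least 1 was found for 7 of the 7 genes with TRAP1 at 4 h, where 8.68% of all genes tested reached it. The same count was 7 with TRAP-1-NegP at 4 h (7.01% of all genes) and 7 with JQ1 at 4 h (11.0%). At 2 h it was 7 with TRAP1 (5.40%), 7 with TRAP-1-NegP (5.22%) and 6 with JQ1 (5.77%), where SAT1 fell just short at 0.95 ± 0.07.

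**Figure D1:**
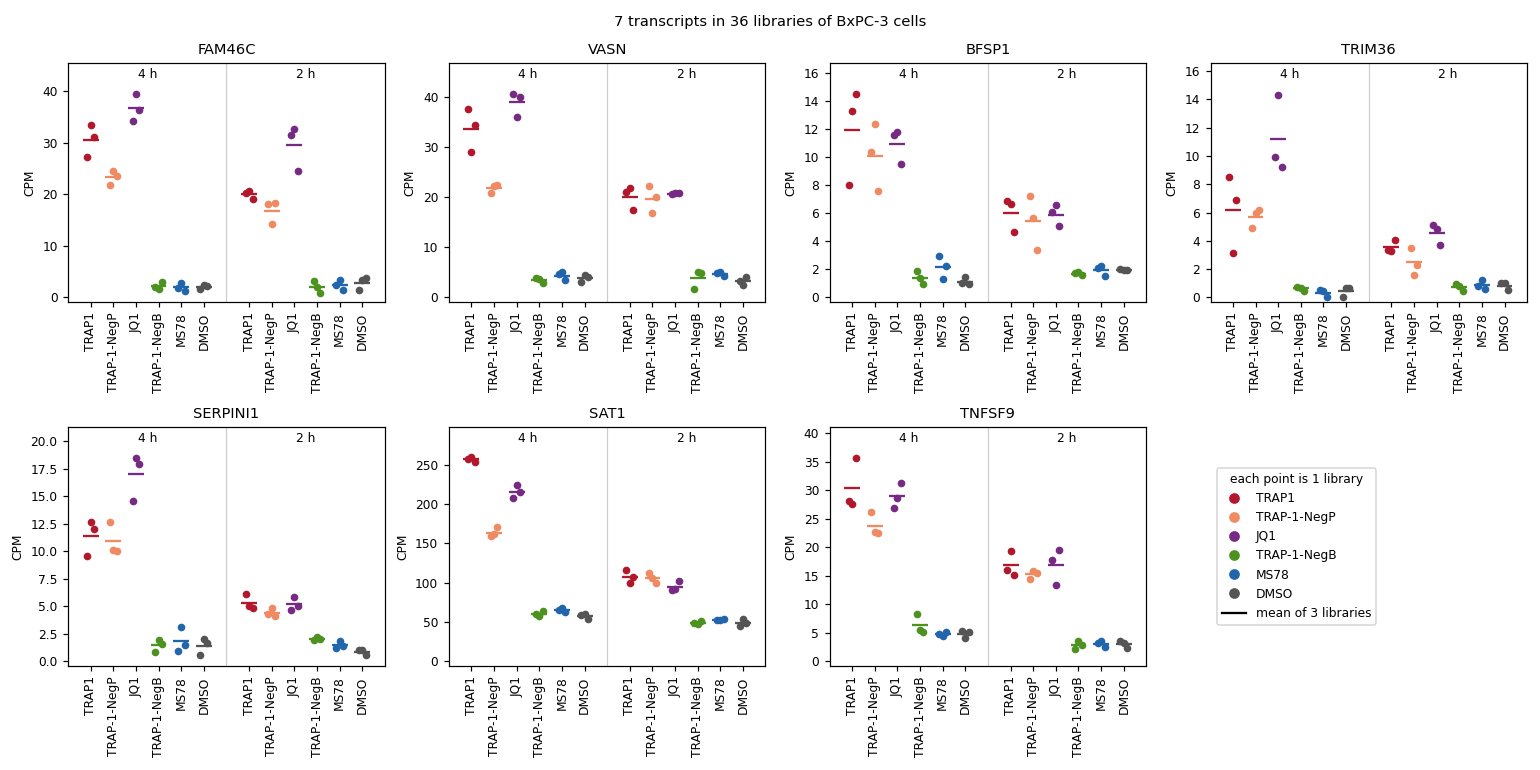
Level of each of the 7 transcripts in CPM (vertical axis) in each library (points) of the 6 compounds at 4 h and at 2 h, with the mean of 3 libraries as a bar. TRAP1, TRAP-1-NegP and JQ1 libraries stand above all others in every panel, and SAT1 spreads between these 3 compounds at 4 h (TRAP1 254 to 260 CPM, JQ1 208 to 224 CPM, TRAP-1-NegP 159 to 170 CPM) but not at 2 h.

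FAM46C encodes a non-canonical poly(A) polymerase that lengthens the tails of messenger RNAs, and it is known as a tumour suppressor in plasma cells. At 4 h FAM46C stood at 27.3, 33.5 and 31.1 CPM in TRAP1 libraries, 21.9, 24.6 and 23.5 CPM in TRAP-1-NegP libraries and 34.2, 39.4 and 36.4 CPM in JQ1 libraries, against 1.58, 2.35 and 2.25 CPM in DMSO libraries. The 3 compounds did not overlap each other, with JQ1 highest and TRAP-1-NegP lowest. At 2 h FAM46C stood at 20.2, 20.7 and 19.1 CPM with TRAP1, 18.0, 14.2 and 18.3 CPM with TRAP-1-NegP and 31.5, 32.6 and 24.6 CPM with JQ1, against 1.49, 3.28 and 3.76 CPM with DMSO. The order of the 3 compounds was thus the one at 4 h, again without overlap. The log2 fold changes against DMSO were 3.89 ± 0.29, 3.50 ± 0.29 and 4.16 ± 0.29 for TRAP1, TRAP-1-NegP and JQ1 at 4 h, and 2.81 ± 0.27, 2.57 ± 0.28 and 3.38 ± 0.28 at 2 h.

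VASN encodes vasorin, a membrane protein that can be shed and then binds TGF-beta. At 4 h VASN stood at 37.5, 28.97 and 34.5 CPM in TRAP1 libraries, 20.8, 22.3 and 22.4 CPM in TRAP-1-NegP libraries and 40.6, 36.1 and 40.1 CPM in JQ1 libraries, against 2.96, 4.54 and 4.10 CPM in DMSO libraries. TRAP1 and JQ1 overlapped here in CPM, and TRAP-1-NegP lay below both. In TPM, TRAP1 and JQ1 did not overlap, at 11.9 to 15.7 TPM and 18.3 to 20.3 TPM. At 2 h the 3 compounds overlapped: 21.0, 21.7 and 17.4 CPM with TRAP1, 22.2, 16.7 and 20.1 CPM with TRAP-1-NegP and 20.5, 20.8 and 20.8 CPM with JQ1, against 3.29, 2.44 and 4.08 CPM with DMSO. Its log2 fold changes at 4 h were 3.12 ± 0.21, 2.5 ± 0.21 and 3.33 ± 0.21 for TRAP1, TRAP-1-NegP and JQ1, and at 2 h all 3 lay between 2.59 and 2.67.

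TNFSF9 encodes the ligand of the costimulatory receptor 4-1BB, which is carried by activated T cells. At 4 h TNFSF9 stood at 28.2, 27.6 and 35.7 CPM in TRAP1 libraries, 26.2, 22.6 and 22.6 CPM in TRAP-1-NegP libraries and 26.9, 28.6 and 31.2 CPM in JQ1 libraries, against 5.33, 4.04 and 5.08 CPM in DMSO libraries. In CPM, all TRAP-1-NegP libraries were below all others of these 3 compounds. In TPM they overlapped the TRAP1 libraries, at 18.5 to 21.6 TPM against 20.9 to 26.2 TPM. At 2 h TNFSF9 stood at 16.1, 19.4 and 15.2 CPM with TRAP1, 14.5, 15.8 and 15.6 CPM with TRAP-1-NegP and 17.8, 13.4 and 19.5 CPM with JQ1, against 3.65, 3.28 and 2.29 CPM with DMSO. These 3 compounds overlapped at 2 h. The log2 fold changes of TNFSF9 were the most even of the 7 genes over time, from 2.30 to 2.66 at 4 h and from 2.31 to 2.45 at 2 h.

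SERPINI1 encodes neuroserpin, a secreted inhibitor of tissue plasminogen activator. At 4 h SERPINI1 stood at 9.568, 12.69 and 12.002 CPM in TRAP1 libraries, 12.7, 10.1 and 10.0 CPM in TRAP-1-NegP libraries and 14.6, 18.4 and 17.9 CPM in JQ1 libraries, against 0.543, 2.08 and 1.71 CPM in DMSO libraries. JQ1 was above both other compounds, which overlapped. At 2 h SERPINI1 stood at 6.13, 5.00 and 4.88 CPM with TRAP1, 4.30, 4.81 and 4.16 CPM with TRAP-1-NegP and 4.66, 5.86 and 5.00 CPM with JQ1, against 1.04, 1.01 and 0.596 CPM with DMSO. At 2 h the JQ1 libraries overlapped those of both other compounds, and all TRAP1 libraries were above all TRAP-1-NegP libraries. The log2 fold changes were 2.99 ± 0.32, 2.93 ± 0.32 and 3.56 ± 0.33 for TRAP1, TRAP-1-NegP and JQ1 at 4 h and lay between 2.32 and 2.59 at 2 h.

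SAT1 encodes spermidine/spermine N1-acetyltransferase, the enzyme that tags polyamines for export or oxidation. At 4 h SAT1 stood at 257, 260 and 254 CPM in TRAP1 libraries, 159, 161 and 170 CPM in TRAP-1-NegP libraries and 208, 224 and 215 CPM in JQ1 libraries, against 59.1, 59.7 and 54.4 CPM in DMSO libraries. In CPM, TRAP1 was highest and TRAP-1-NegP lowest, without overlap. At 2 h SAT1 stood at 116, 99.6 and 108 CPM with TRAP1, 112, 106 and 99.1 CPM with TRAP-1-NegP and 90.3, 92.4 and 102 CPM with JQ1, against 45.1, 53.4 and 48.3 CPM with DMSO. The 3 compounds overlapped at 2 h. SAT1 had the smallest log2 fold changes of the 7, at 2.15 ± 0.07, 1.5 ± 0.07 and 1.90 ± 0.07 for TRAP1, TRAP-1-NegP and JQ1 at 4 h and 1.14 ± 0.07, 1.11 ± 0.07 and 0.95 ± 0.07 at 2 h. It also had by far the highest level, with a mean of 336 ± 10.3 TPM in TRAP1 libraries and 94.98 ± 6.07 TPM in DMSO libraries at 4 h (SD, n = 3), where VASN averaged 13.8 ± 1.89 TPM and 2.02 ± 0.37 TPM in the same groups.

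BFSP1 encodes filensin, a beaded-filament protein known from the eye lens. At 4 h BFSP1 stood at 8.01, 13.3 and 14.5 CPM in TRAP1 libraries, 10.3, 12.4 and 7.58 CPM in TRAP-1-NegP libraries and 11.6, 11.8 and 9.53 CPM in JQ1 libraries, against 0.987, 1.42 and 0.927 CPM in DMSO libraries. The lowest of the TRAP1 libraries is replicate 1, which stood apart in earlier results. At 2 h BFSP1 stood at 6.86, 6.63 and 4.65 CPM with TRAP1, 7.23, 5.65 and 3.40 CPM with TRAP-1-NegP and 6.08, 6.57 and 5.05 CPM with JQ1, against 1.98, 1.97 and 1.93 CPM with DMSO. The 3 compounds overlapped at both times. Its log2 fold changes lay between 3.19 and 3.42 at 4 h and between 1.46 and 1.62 at 2 h.

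TRIM36 encodes an E3 ubiquitin ligase of the class I tripartite-motif family, whose best-known members bind microtubules. Its counts were low, from 68 to 175 estimated counts per TRAP1 library and from 1 to 14 per DMSO library at 4 h. At 4 h TRIM36 stood at 8.50, 3.13 and 6.92 CPM in TRAP1 libraries, 4.92, 5.99 and 6.20 CPM in TRAP-1-NegP libraries and 9.95, 14.4 and 9.23 CPM in JQ1 libraries, against 0.0493, 0.656 and 0.683 CPM in DMSO libraries. JQ1 was above both other compounds, which overlapped. At 2 h TRIM36 stood at 3.32, 3.26 and 4.03 CPM with TRAP1, 3.52, 1.60 and 2.32 CPM with TRAP-1-NegP and 5.13, 4.82 and 3.67 CPM with JQ1, against 0.992, 1.01 and 0.504 CPM with DMSO. At 2 h the JQ1 libraries overlapped those of TRAP1 and lay above those of TRAP-1-NegP. The log2 fold changes were 3.73 ± 0.52, 3.61 ± 0.51 and 4.59 ± 0.52 for TRAP1, TRAP-1-NegP and JQ1 at 4 h, with the widest errors of the 7 genes.

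**Figure D2:**
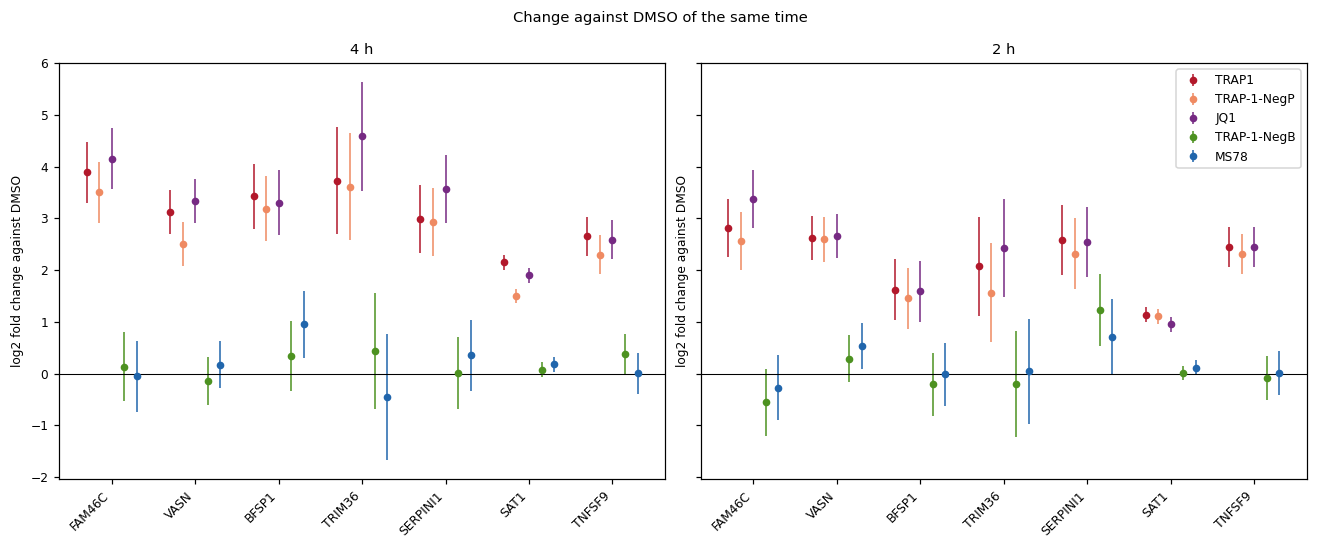
Log2 fold change against DMSO (vertical axis) of each gene at 4 h (left) and 2 h (right) for 5 compounds, with 95% confidence intervals as bars. TRAP1, TRAP-1-NegP and JQ1 lie between 1.5 and 4.59 at 4 h, and TRAP-1-NegB and MS78 lie between -0.55 and 1.23 over both times, the highest being SERPINI1 with TRAP-1-NegB at 2 h.

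TRAP-1-NegB and MS78 took no part in the choice of the genes, although they were set against the same DMSO libraries. With TRAP-1-NegB at 4 h, no gene of the 7 passed edgeR's quasi-likelihood test at an adjusted p under 0.05, where 1.03% of all genes did. At an unadjusted p under 0.05 there was 1, TNFSF9 (0.39 ± 0.19), and DESeq2 called 0. TNFSF9 stood at 8.23, 5.59 and 5.15 CPM with TRAP-1-NegB and at 5.33, 4.04 and 5.08 CPM with DMSO, and the groups overlapped. With TRAP-1-NegB at 2 h, 1 of the 7 genes passed, where 10.9% of all genes did. This was SERPINI1, which stood at 1.96, 2.26 and 2.01 CPM with TRAP-1-NegB, against 1.04, 1.01 and 0.596 CPM with DMSO, without overlap. It rose by 1.23 ± 0.35 (edgeR adjusted p = 0.0129), and the call was lost without DMSO at 2 h replicate 3 (1.02, adjusted p = 0.105). The difference between 4 and 2 h in its response, -1.21 ± 0.49, did not pass (adjusted p = 0.242).

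With MS78 at 4 h, 1 of the 7 genes passed, where 15.3% of all genes did. BFSP1 stood at 2.91, 1.29 and 2.23 CPM with MS78, against 0.987, 1.42 and 0.927 CPM with DMSO, so that the groups overlapped. It rose by 0.95 ± 0.32 (edgeR adjusted p = 0.037). That call was lost without MS78 at 4 h replicate 1 (0.66, adjusted p = 0.264) or replicate 3 (0.92, 0.0848), without DMSO at 4 h replicate 1 (0.91, 0.0841) or replicate 3 (0.87, 0.139), and when only these 2 groups were fitted (0.96, 0.183). SAT1 stood at 65.0, 68.1 and 63.3 CPM with MS78, against 59.1, 59.7 and 54.4 CPM with DMSO, without overlap, but its change of 0.18 ± 0.07 did not pass (adjusted p = 0.0724). It did pass by DESeq2 (0.20, adjusted p = 0.0203) and without both libraries that stood apart (0.20, 0.0168). By edgeR it also passed with DESeq2 size factors (0.20, 0.0463) and without DMSO at 4 h replicate 1 (0.23, 0.0345) or 2 (0.24, 0.045). With MS78 at 2 h, edgeR called 0 of the 7 genes, where 15.9% of all genes passed. There was 1 at an unadjusted p under 0.05, VASN (0.54 ± 0.22), and DESeq2 called 0. VASN stood at 4.89, 5.09 and 4.22 CPM with MS78, against 3.29, 2.44 and 4.08 CPM with DMSO, without overlap. Of the 14 alternatives, it passed only without DMSO at 2 h replicate 3 (0.72, adjusted p = 0.0497).

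MS78 was then set against TRAP-1-NegB. At 4 h, edgeR called 0 of them, where 8.93% of all genes passed, with 0 at an unadjusted p under 0.05 and 0 by DESeq2. At 2 h, edgeR again called 0, where 3.17% of all genes passed, with 0 at an unadjusted p under 0.05 and 0 by DESeq2. The 95% confidence interval of the difference at 4 h was narrow for SAT1 (-0.04 to 0.24) and wide for TRIM36 (-2.05 to 0.28). TRIM36 had 0 counts in MS78 at 4 h replicate 3. The difference between 4 and 2 h in the response to TRAP-1-NegB passed edgeR's test for 0 of the 7 genes, where 2.48% of all genes passed, with 1 at an unadjusted p under 0.05 and 0 by DESeq2. For MS78 it passed for 0 of 7, where 15.2% of all genes passed, with 1 at an unadjusted p under 0.05 (BFSP1, 0.96 ± 0.45) and 0 by DESeq2.

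The 3 compounds used to pick the genes were compared with each other at the shared dose of 3 µM. The size of these differences took no part in the choice of the genes, although the libraries did. The calls between these compounds are therefore not independent of that choice. For TRAP1 against TRAP-1-NegP at 4 h, 2 of the 7 genes passed, where 15.3% of all genes did. SAT1 was higher with TRAP1 by 0.65 ± 0.07 (edgeR adjusted p = 6.29e-11, 1.57-fold), in 3 of 3 TRAP1 libraries against all 3 of TRAP-1-NegP. Over all 14 alternatives this difference stayed between 0.63 and 0.68, with an adjusted p of at most 1.54e-08. VASN was higher with TRAP1 by 0.62 ± 0.18 (adjusted p = 0.0146). That call was lost without TRAP1 at 4 h replicate 1, a library that stood apart (0.54, adjusted p = 0.0811), or without TRAP-1-NegP at 4 h replicate 1 (0.59, 0.0587). The other 5 genes also had higher fitted values with TRAP1, between 0.06 for SERPINI1 and 0.39 for FAM46C, without passing. The interval for SERPINI1 was -0.51 to 0.63 and that for BFSP1 -0.30 to 0.77. When only these 2 groups were fitted, FAM46C passed as well (0.40, adjusted p = 0.0423).

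For TRAP1 against TRAP-1-NegP at 2 h, edgeR called 0 of the 7 genes, where 0.801% of all genes passed, with 0 at an unadjusted p under 0.05 and 0 by DESeq2. SAT1 differed by 0.03 ± 0.07, with an interval of -0.11 to 0.17, and VASN by 0.03 ± 0.19, with an interval of -0.35 to 0.40. The change of this difference between 4 and 2 h passed for 1 of the 7 genes, where 5.82% of all genes passed. This was SAT1, for which TRAP1 gained 0.62 ± 0.10 on TRAP-1-NegP from the earlier to the later time (adjusted p = 1.15e-05). For VASN the same quantity was 0.60 ± 0.26 and did not pass (adjusted p = 0.194), except when only the 4 groups were fitted (0.60, adjusted p = 0.0339).

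JQ1 against TRAP-1-NegP at 4 h passed for 3 of the 7 genes, where 25.7% of all genes did. VASN was higher with JQ1 by 0.83 ± 0.18 (edgeR adjusted p = 0.00058), SAT1 by 0.40 ± 0.07 (adjusted p = 1.31e-05) and FAM46C by 0.65 ± 0.24 (adjusted p = 0.038). For each of the 3, all JQ1 libraries stood above all TRAP-1-NegP libraries. The FAM46C call was lost by DESeq2 (0.64, adjusted p = 0.0835), without both libraries that stood apart (0.64, 0.0567) and without any 1 of the 6 libraries compared, JQ1 replicates 1, 2 and 3 (0.70, 0.60 and 0.66) or TRAP-1-NegP replicates 1, 2 and 3 (0.61, 0.70 and 0.66), with adjusted p-values from 0.061 to 0.121. TRIM36 (0.97 ± 0.42, adjusted p = 0.0836) and SERPINI1 (0.63 ± 0.28, adjusted p = 0.0918) were higher in every JQ1 library without passing. Both passed when only these 2 groups were fitted (adjusted p = 0.000738 for TRIM36 and 0.00474 for SERPINI1), and TRIM36 passed by DESeq2 (0.0494).

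At 2 h the same comparison passed for 1 of the 7 genes, where 12.9% of all genes did. FAM46C was higher with JQ1 by 0.81 ± 0.24 (edgeR adjusted p = 0.0201). The call was lost without JQ1 at 2 h replicate 1 (0.77, adjusted p = 0.0788) or 2 (0.74, 0.0931) and without TRAP-1-NegP at 2 h replicate 1 (0.86, 0.0534) or 2 (0.70, 0.106). TRIM36 (0.87 ± 0.44, adjusted p = 0.207) passed when only these 2 groups were fitted (0.89, 0.0352). SAT1 had a lower fitted value with JQ1 at 2 h, at -0.15 ± 0.07, without passing (adjusted p = 0.137). The change of the JQ1 against TRAP-1-NegP difference between 4 and 2 h passed for SAT1 alone of the 7 genes, at 0.55 ± 0.10 (adjusted p = 0.000189), where 3.72% of all genes passed. VASN had 0.76 ± 0.26 (adjusted p = 0.0949), which passed when only the 4 groups were fitted (0.72, adjusted p = 0.00267).

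TRAP1 against JQ1 at 4 h passed for 1 of the 7 genes, where 27.4% of all genes did. SAT1 was higher with TRAP1 by 0.25 ± 0.07 (edgeR adjusted p = 0.00279), in CPM in 3 of 3 TRAP1 libraries against all 3 of JQ1. Over all 14 alternatives its difference stayed between 0.23 and 0.28, with an adjusted p of at most 0.0247. None of these alternatives used TPM. In TPM the groups overlapped, with SAT1 at 341, 343 and 325 TPM with TRAP1 and 331, 361 and 340 TPM with JQ1. The higher level with TRAP1 was thus seen in scaled counts and not in TPM. TRIM36 (-0.86 ± 0.42, adjusted p = 0.129) and SERPINI1 (-0.57 ± 0.28, adjusted p = 0.128) had lower fitted values with TRAP1 and passed only when these 2 groups were fitted alone (adjusted p = 0.034 for TRIM36 and 0.0252 for SERPINI1). BFSP1 and TNFSF9 differed by 0.12 ± 0.27 and 0.08 ± 0.17, with intervals of -0.41 to 0.65 and -0.26 to 0.41.

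At 2 h, edgeR called 0 of the 7 genes between TRAP1 and JQ1, where 1.99% of all genes passed, with 2 at an unadjusted p under 0.05 (FAM46C and SAT1) and 0 by DESeq2. FAM46C was at -0.56 ± 0.24 (adjusted p = 0.295). It passed without the count filter (-0.57, adjusted p = 0.0452) and when only the 2 groups were fitted (-0.57, 0.000409). The change of the TRAP1 against JQ1 difference between 4 and 2 h passed edgeR's test for 0 of the 7 genes, where 7.13% of all genes passed, with 0 at an unadjusted p under 0.05 and 0 by DESeq2. For SAT1 it was 0.07 ± 0.10, with an interval of -0.12 to 0.26.

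**Figure D3:**
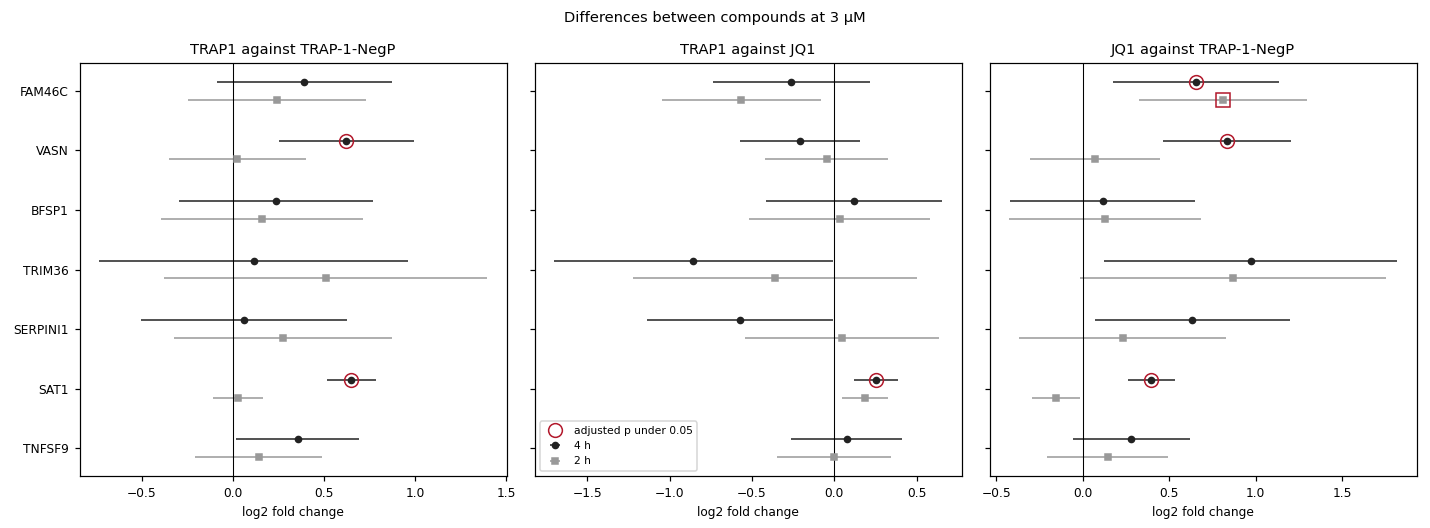
Log2 fold change between compounds (horizontal axis) for each gene at 4 h (black circles) and 2 h (grey squares), with 95% confidence intervals as bars and red outlines where the edgeR adjusted p was under 0.05. SAT1 lies at 0.65, 0.25 and 0.40 at 4 h in the panels for TRAP1 against TRAP-1-NegP, TRAP1 against JQ1 and JQ1 against TRAP-1-NegP, and at 0.03, 0.19 and -0.15 at 2 h.

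The genes differed in how much of their level was already there at 2 h. FAM46C with JQ1 was 1.24 times as high at 4 h as at 2 h, with means of 36.7 and 29.6 CPM, and this was the smallest ratio for JQ1 among the 7 genes. SERPINI1 with JQ1 was 3.28 times as high at 4 h (means of 17.0 and 5.18 CPM), the largest ratio for any gene and compound. SAT1 was 2.38 times as high at 4 h with TRAP1 and 2.27 times with JQ1, but 1.55 times with TRAP-1-NegP. VASN was 1.68 times as high at 4 h with TRAP1, 1.88 times with JQ1 and 1.11 times with TRAP-1-NegP, where the libraries of both times overlapped. BFSP1 was 1.97, 1.86 and 1.86 times as high with TRAP1, TRAP-1-NegP and JQ1. In DMSO the same ratios were 0.72 for FAM46C, 1.64 for SERPINI1, 1.18 for SAT1 and VASN and 0.57 for BFSP1. Against DMSO of the same time, FAM46C with JQ1 went from 3.38 log2 units at 2 h to 4.16 at 4 h. TNFSF9 with JQ1 went from 2.45 to 2.58, so the smallest ratio of levels was not the smallest gain over DMSO. All these values come from groups used in the choice of the genes and carry no test.

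In DMSO alone, 2 of the 7 genes passed for 4 h against 2 h, where 20.8% of all genes did. These libraries took part in the choice of the genes, although the difference between their times did not, so the calls are not independent of that choice. SAT1 was higher at 4 h by 0.24 ± 0.07 (edgeR adjusted p = 0.0111) and TNFSF9 by 0.65 ± 0.20 (adjusted p = 0.016), with all 3 libraries at 4 h above all 3 at 2 h for both. The SAT1 call was lost without DMSO at 2 h replicate 1 (0.16, adjusted p = 0.163), without DMSO at 4 h replicate 1 (0.20, 0.0623) or 2 (0.20, 0.0952), and without the count filter (0.21, 0.0508). The TNFSF9 call was lost without DMSO at 2 h replicate 3 (0.47, adjusted p = 0.147), without DMSO at 4 h replicate 1 (0.55, 0.077) or 3 (0.59, 0.0745), and when only the 2 groups were fitted (0.64, 0.0792). BFSP1 had a lower value at 4 h (-0.82 ± 0.32, adjusted p = 0.0632), which passed without both libraries that stood apart (-0.84, adjusted p = 0.0383) and without DMSO at 4 h replicate 2 (-1.05, 0.0495). SERPINI1 (0.70 ± 0.36, adjusted p = 0.185) passed only without DMSO at 4 h replicate 1 (1.07, adjusted p = 0.0253).

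Transcript-level values were clear for SAT1. Its RefSeq transcript NM_002970.2 carried 93.9% ± 1.87, 93.4% ± 0.593 and 94.2% ± 0.728 of the gene's TPM with TRAP1, TRAP-1-NegP and JQ1 at 4 h, against 89.3% ± 2.81 with DMSO (SD, n = 3). Its second deposited transcript, which has no RefSeq accession there, averaged 20.4 ± 6.27, 15.4 ± 1.71 and 20.0 ± 3.34 TPM with the same compounds and 10.1 ± 2.14 TPM with DMSO. NM_002970.2 averaged 316, 219 and 324 TPM with these compounds, against 84.9 TPM with DMSO, so most of the difference in SAT1 lay on it. FAM46C and VASN have 1 transcript each in the table. For BFSP1, SERPINI1 and TNFSF9, the transcript listed as highest changed between libraries, 27 of the 36 libraries placed all of SERPINI1 on 1 transcript and all 36 did so for TNFSF9, so isoforms of these genes were not resolved here. TRIM36 has 5 transcripts in the table, and in 35 of the 36 libraries 1 of them carried all of its TPM; in the other library the gene was at 0.

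The genes that work beside each of the 7 were read from the same fit against DMSO at 4 h, where 22.2% of all genes were higher and 24.5% lower with TRAP1, 18.6% higher and 18.9% lower with TRAP-1-NegP, and 24.3% higher and 24.6% lower with JQ1 by edgeR's test. These 3 comparisons share their DMSO libraries. The median over all genes lay between -0.02 and -0.01 in each.

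Beside FAM46C, of 11 poly(A) and nucleotidyl polymerases tested, 2 rose and 2 fell with TRAP1, 3 rose and 1 fell with TRAP-1-NegP, and 5 rose and 1 fell with JQ1, with list medians of -0.06, -0.05 and 0.36. FAM46A, a paralog of FAM46C, rose by 0.77 ± 0.17, 0.52 ± 0.17 and 1.11 ± 0.17 with TRAP1, TRAP-1-NegP and JQ1 (edgeR adjusted p = 0.000108, 0.012 and 1.18e-07). PAPD5, which adds mixed tails to RNAs, rose by 1.06 ± 0.12, 1.00 ± 0.12 and 1.78 ± 0.12. MTPAP, the mitochondrial poly(A) polymerase, fell to 6.50, 8.77 and 5.56 CPM on average, against 14.5 CPM with DMSO. PAPOLA, the main nuclear poly(A) polymerase, rose with JQ1 (0.36 ± 0.08, adjusted p = 0.000163) and was at -0.06 ± 0.08 with TRAP1 (adjusted p = 0.594).

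Beside VASN, of 12 TGF-beta ligands, receptors and binding or processing proteins tested, 2 rose and 2 fell with TRAP1, 2 rose and 2 fell with TRAP-1-NegP, and 3 rose and 2 fell with JQ1, with medians of -0.08, -0.09 and 0.09. TGFB1, the ligand, rose by 0.93 ± 0.07, 0.76 ± 0.07 and 0.78 ± 0.07 with TRAP1, TRAP-1-NegP and JQ1 (adjusted p = 6.34e-16, 1.47e-12 and 2.3e-13). Of the receptor pair, TGFBR1 rose by 0.94 ± 0.10, 0.56 ± 0.10 and 1.17 ± 0.10, while TGFBR2 fell to 40.7, 49.8 and 42.3 CPM, against 87.7 CPM with DMSO. TGFB2 also fell, to 2.54, 2.92 and 3.77 CPM, against 7.63 CPM with DMSO. ADAM17, a protease that sheds VASN, rose with JQ1 (0.57 ± 0.22, adjusted p = 0.0305) and was at 0.02 ± 0.23 with both other compounds.

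Beside TNFSF9, 8 genes were tested among other TNF-family ligands and its receptor TNFRSF9. With TRAP1, edgeR called 0 of them, with 1 at an unadjusted p under 0.05 and 1 by DESeq2. With TRAP-1-NegP, 2 fell, and with JQ1, 1 fell. By DESeq2, 1 gene also rose with TRAP-1-NegP and 2 with JQ1. TNFSF13B was at 1.76 ± 0.75, 1.74 ± 0.75 and 1.72 ± 0.75 with TRAP1, TRAP-1-NegP and JQ1. It did not pass by edgeR (adjusted p = 0.0504, 0.0636 and 0.0544). TNFSF10, the death ligand TRAIL, stood at 10.2 and 9.32 CPM with TRAP-1-NegP and JQ1, against 18.1 CPM with DMSO (-0.82 ± 0.14, adjusted p = 5e-06, and -0.96 ± 0.14, adjusted p = 1.27e-07), and at 17.9 CPM with TRAP1 (adjusted p = 0.929). The other gene that fell with TRAP-1-NegP by edgeR, TNFSF4, was listed at 0 CPM there and averaged 0.330 CPM with DMSO, so no fold is given. TNFRSF9 averaged 1.07, 0.533 and 1.09 CPM with TRAP1, TRAP-1-NegP and JQ1, against 0.968 CPM with DMSO, without passing in any of them. The list medians were 0.24, -0.54 and 0.21.

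Beside SERPINI1, of 15 serpins and plasminogen activators tested, 7 rose and 3 fell with TRAP1, 6 rose and 2 fell with TRAP-1-NegP, and 6 rose and 4 fell with JQ1, with medians of 0.28, -0.03 and 0.34. PLAT, the activator that SERPINI1 inhibits, was at 0.06 ± 0.15, -0.06 ± 0.15 and 0.03 ± 0.15 with TRAP1, TRAP-1-NegP and JQ1, without passing (adjusted p = 0.787, 0.782 and 0.884). SERPINE2, an inhibitor of plasminogen activators, rose by 0.87 ± 0.07, 0.49 ± 0.07 and 0.80 ± 0.07. PLAU, or urokinase, fell to 157 and 114 CPM with TRAP-1-NegP and JQ1, against 260 CPM with DMSO, and stood at 243 CPM with TRAP1 (adjusted p = 0.176).

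Beside SAT1, of 19 genes of polyamine metabolism tested, 10 rose with TRAP1, 8 rose with TRAP-1-NegP, and 9 rose and 2 fell with JQ1, with medians of 0.35, 0.26 and 0.24. ODC1, the first enzyme of polyamine synthesis, rose by 0.91 ± 0.05, 0.86 ± 0.05 and 0.95 ± 0.05 with TRAP1, TRAP-1-NegP and JQ1 (adjusted p = 1.46e-20, 2.49e-19 and 1.74e-21). AMD1, which supplies aminopropyl groups for the same synthesis, rose by 0.67 ± 0.08, 0.73 ± 0.08 and 1.07 ± 0.08. SMOX, which oxidises spermine, rose by 1.06 ± 0.10, 0.74 ± 0.10 and 0.84 ± 0.10. AZIN1, which shields ODC1 from degradation, and OAZ1, the antizyme that triggers it, both rose with all 3 compounds, AZIN1 by 0.62 ± 0.08, 0.62 ± 0.08 and 0.90 ± 0.08 and OAZ1 by 0.42 ± 0.06, 0.47 ± 0.06 and 0.31 ± 0.06. The paralog SAT2 was at 0.25 ± 0.18, -0.02 ± 0.18 and -0.36 ± 0.18, without passing (adjusted p = 0.257, 0.959 and 0.0947).

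Beside BFSP1, of 6 non-keratin intermediate filament genes tested, 3 rose and 2 fell with TRAP1, 2 rose and 1 fell with TRAP-1-NegP, and 1 rose and 1 fell with JQ1, with medians of 0.28, -0.03 and 0.10. SYNM, or synemin, rose by 1.35 ± 0.13, 1.31 ± 0.13 and 1.90 ± 0.14 with TRAP1, TRAP-1-NegP and JQ1 (adjusted p = 1.77e-12, 8.65e-12 and 9.77e-18), and LMNB1, a nuclear lamin, fell to 49.8, 65.6 and 63.5 CPM, against 96.1 CPM with DMSO. Beside TRIM36, the 4 TRIM-family genes tested from its list were MID1, MID2, TRIM9 and TRIM54, with medians of 0.20, -0.04 and 0.04. EdgeR called 0 of them with each of the 3 compounds, with 0 at an unadjusted p under 0.05 and 0 by DESeq2. MID1, a microtubule-binding ligase, was at 0.04 ± 0.15, -0.03 ± 0.15 and 0.15 ± 0.15.

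Of 16 genes tested from a list known to go up with BET inhibitors, 14 rose with TRAP1, 14 with TRAP-1-NegP and 13 with JQ1, with medians of 1.75, 1.65 and 1.86. With TRAP-1-NegB 1 rose, where 0.827% of all genes were higher and 0.200% lower. With MS78 1 rose and 2 fell, where 6.23% of all genes were higher and 9.05% lower. The list medians were 0.14 with TRAP-1-NegB and 0.02 with MS78. HEXIM1, which holds the elongation factor P-TEFb inactive, rose by 2.01 ± 0.08, 1.62 ± 0.08 and 1.95 ± 0.08 with TRAP1, TRAP-1-NegP and JQ1. TXNIP, an inhibitor of thioredoxin, rose by 1.73 ± 0.06, 1.57 ± 0.06 and 1.64 ± 0.06. It was also the gene of the list that rose with TRAP-1-NegB (0.44 ± 0.06, edgeR adjusted p = 5.19e-07) and with MS78 (0.40 ± 0.06, adjusted p = 1.64e-06). Of 3 BET genes tested, 2 rose and 1 fell with TRAP1, 2 rose with TRAP-1-NegP and 2 rose with JQ1. BRD2 rose by 1.77 ± 0.05, 1.67 ± 0.05 and 1.78 ± 0.05 with TRAP1, TRAP-1-NegP and JQ1. BRD3 rose by 0.29 ± 0.12, 0.52 ± 0.12 and 0.54 ± 0.12 (edgeR adjusted p = 0.0478, 0.000405 and 0.000164).

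Likeness of pattern was measured as Pearson's r of log2 CPM over the 12 group means, which share libraries and depth with each other, and is given as a description. Of 10320 other genes with at least 5 CPM on average, the 8 most like the mean of the 7 were BRD2 (r = 0.996), CIRBP (0.994), DUSP1 (0.993), HIST2H2BE (0.992), CHCHD7 (0.991), GADD45B (0.991), HIST1H2BD (0.990) and HEXIM1 (0.989). Their log2 fold changes against DMSO with TRAP1 at 4 h ran from 1.55 for CIRBP to 3.30 for HIST2H2BE, and those of the 7 genes from 2.15 for SAT1 to 3.89 for FAM46C. The 7 genes were picked for rises in the same groups, so high values of r among them follow largely from the choice. Among the 7, FAM46C and VASN were most alike (r = 0.984). BFSP1, SERPINI1 and TNFSF9 were each closest to VASN (0.969, 0.957 and 0.963), TRIM36 to FAM46C (0.959) and SAT1 to SERPINI1 (0.954). The least alike pair was SAT1 and TRIM36 (0.876).

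**Figure D4:**
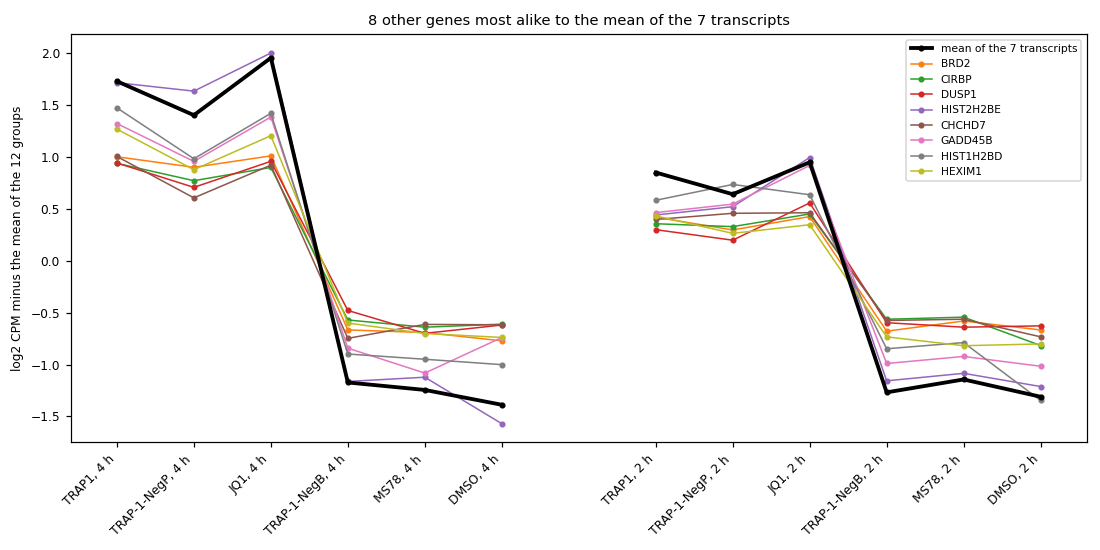
Log2 CPM of each gene minus its mean over the 12 groups (vertical axis), at 4 h (left) and 2 h (right) for 6 compounds, for the mean of the 7 transcripts (black) and the 8 other genes most like it (colours). Lines only join the points of 1 gene, and the black line runs from 1.95 with JQ1 at 4 h down to -1.39 with DMSO at 4 h.

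Genome neighbours were read from the same fit. Of 16 nearest or overlapping genes, 12 were tested, and against DMSO at 4 h 3 of them rose and 2 fell with TRAP1, 2 rose with TRAP-1-NegP, and 6 rose and 3 fell with JQ1, with medians of 0.13, 0.16 and 0.20. Of all genes tested, 22.2% were higher and 24.5% lower with TRAP1, and 18.6% higher and 18.9% lower with TRAP-1-NegP. With JQ1, 24.3% were higher and 24.6% lower. CORO7, which overlaps VASN on the other strand, stood at 25.4, 25.6 and 22.0 CPM with TRAP1, TRAP-1-NegP and JQ1, against 21.4 CPM with DMSO, without passing at 4 h (edgeR adjusted p = 0.144, 0.142 and 0.841). The labels do not say whether reads were counted by strand, so reads of VASN and CORO7 in the shared span could be exchanged. PDCD10, which starts 304 bases from SERPINI1 on the other strand, rose by 0.33 ± 0.09 with TRAP1 and 0.38 ± 0.09 with JQ1 and was at 0.08 ± 0.09 with TRAP-1-NegP (adjusted p = 0.00169, 0.000425 and 0.508). DSTN, 643 bases from BFSP1 on the other strand, rose by 0.63 ± 0.07, 0.32 ± 0.07 and 0.37 ± 0.07 with TRAP1, TRAP-1-NegP and JQ1. ACOT9 and APOO on either side of SAT1 were not called with any of the 3 compounds, with adjusted p-values from 0.0516 to 0.844. KCNN2 beside TRIM36, which counts among those called with TRAP-1-NegP and JQ1, was at 0 CPM with DMSO and at most 0.521 CPM with a compound, so no fold is given.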

How the data were processed

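Per the labels' protocols and the series' design text, polyA-enriched libraries were sequenced with paired 150-base reads. The submitters' processing notes name hg38 and Salmon 1.10.3 in nf-core/rnaseq 3.18.0. No annotation release is named by the labels or file headers. The authors deposited estimated counts per gene, not normalized for depth, and a second deposited table holds length-scaled estimated counts. TPM values, deposited by the authors per gene and per transcript, were used for levels between genes, markers and transcripts. They were otherwise used only beside CPM, for SAT1, VASN and TNFSF9 at 4 h. No library or column was left out.

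Estimated counts were rounded to whole numbers. In R 4.3.3, edgeR 4.0.16 kept genes by filterByExpr (minimum count 10), scaled libraries by TMM and fitted, over all 36 libraries, 1 mean per compound and time by robust quasi-likelihood. Tests were two-sided, with Benjamini-Hochberg adjustment over all genes of a comparison and calls at an adjusted p under 0.05. There were 18 tested and 6 described comparisons. The procedure was tested on simulated data. The SE holds counting error and replicate spread together.

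The 7 genes, the 9 gene lists and the tests were chosen with earlier results of these data known. Named were all 7 genes, up to 3 list genes a direction by adjusted p with any receptor, target or family head, the 8 most alike genes, and genome neighbours; a few genes that this rule names are not reported here. Alternatives were DESeq2 size factors, DESeq2 1.42.0, other count filters, length-scaled counts, a replicate block, fits restricted to the groups of a comparison, omission of each single library, and both libraries that stood apart left out. Gene positions came from GENCODE v29 and promoters from RefSeq on GRCh38.p14. Plots used matplotlib 3.10.9 (Python 3.11.15).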

Additional observations from a re-analysis of the deposited data

Results flagged for a closer look

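SAT1 is flagged in both comparisons with TRAP-1-NegP because its difference between compounds itself differed between the times, by a test of that difference. TRAP1 against TRAP-1-NegP was larger at 4 h than at 2 h by 0.62 ± 0.10 on the log2 scale (edgeR adjusted p = 1.15e-05). At 4 h the 3 TRAP1 libraries (254 to 260 CPM) stood above the 3 TRAP-1-NegP libraries (159 to 170 CPM), and at 2 h they overlapped (99.6 to 116 CPM and 99.1 to 112 CPM). JQ1 against TRAP-1-NegP was larger at 4 h than at 2 h by 0.55 ± 0.10 (edgeR adjusted p = 0.000189). Over 20 alternatives each, the first value stayed between 0.56 and 0.67 and the second between 0.51 and 0.62, with adjusted p-values of at most 0.000211 and 0.00157. With 3 libraries a group, no group was tested for outlying libraries. The libraries of these compounds took part in the choice of the genes, so both tests are not independent of it.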

How the results depend on the processing

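The described log2 fold changes kept their direction in all 588 alternative values. Of the tested values, 1926 stayed on their side of the threshold, 28 lost a call and 20 gained one. No called value changed sign, but values that were not called could: FAM46C with TRAP-1-NegB against DMSO at 4 h ran from -0.16 to 0.32, and SERPINI1 with MS78 from -0.28 to 0.74. For MS78 against DMSO at 4 h, where 1 of the 7 genes was called, the number was 2 with DESeq2 size factors in edgeR, 2 by DESeq2, 2 without both libraries that stood apart and 0 when only the groups compared were fitted. Fitting only the groups compared also gave 3 genes for TRAP1 against JQ1 at 4 h (1 in the full fit), 5 for JQ1 against TRAP-1-NegP at 4 h (3), 1 for TRAP1 against JQ1 at 2 h (0), 2 for JQ1 against TRAP-1-NegP at 2 h (1), 1 for DMSO at 4 h against 2 h (2), and 2 each for TRAP1 and JQ1 against TRAP-1-NegP, 4 h minus 2 h (1). Without the count filter, 1 gene was called for TRAP1 against JQ1 at 2 h and 1 for DMSO at 4 h against 2 h. With each library left out in turn, the number ran from 0 to 2 for MS78 against DMSO at 4 h, 1 to 2 for TRAP1 against TRAP-1-NegP at 4 h, 0 to 1 for TRAP-1-NegB against DMSO at 2 h, 0 to 1 for MS78 against DMSO at 2 h, 0 to 1 for JQ1 against TRAP-1-NegP at 2 h and 1 to 2 for DMSO at 4 h against 2 h. For JQ1 against TRAP-1-NegP at 4 h, the FAM46C call was lost whichever library was left out, while VASN and SAT1 stayed called. By DESeq2, 1 serpin fell with TRAP1 at 4 h (3 by edgeR) and 1 poly(A) polymerase did (2 by edgeR). The cause of these changes was not tested.

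Same-numbered replicates did not pair, since correlations of their deviations lay between -0.0645 and 0.0644 over 19 comparisons. With the replicate number as a block, the number of genes called was the same as without it in all 18 tested comparisons, for example 2 for TRAP1 against TRAP-1-NegP, 3 for JQ1 against TRAP-1-NegP and 1 for TRAP1 against JQ1 at 4 h. Counts of under 15 per library limit TRIM36 in DMSO at 4 h, where its SE against each compound is at least 0.51.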
